A study of Mus musculus with 18 samples.

Results

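Wnt proteins are secreted lipid-modified signals that bind Frizzled (Fzd) receptors on the surface of a cell. In the canonical branch of the pathway, a Frizzled and the co-receptors Lrp5 or Lrp6 recruit Dishevelled, the complex that destroys beta-catenin is held back, and beta-catenin enters the nucleus and acts with TCF and LEF factors. Secreted Frizzled-related proteins (Sfrp) bind Wnts outside the cell, and Dickkopf proteins (Dkk) mostly bind the Lrp co-receptors. In the developing spinal cord Wnts from the roof plate pattern the dorsal progenitors, and planar polarity signalling through Fzd3 steers growing axons.

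The set examined here held the 37 genes whose symbol is Wnt with a number, Fzd1 to Fzd10, Sfrp1 to Sfrp5 or Dkk1 to Dkk4 and that stood in all 5 deposited tables, of 23305 symbols found in all of them. It comprised 19 Wnt ligands, 10 Frizzled receptors, 4 Sfrp genes and 4 Dkk genes. Sfrp3 carries the symbol Frzb in these tables, so it was counted with the further inhibitors.

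RNA-Seq had been performed on motor neurons (MNs) sorted from mouse spinal cord in 18 samples. By their labels, 3 brachial, 3 thoracic and 3 lumbar samples were wildtype at postnatal day 8 (p8), 3 brachial samples were Hoxc8 MNΔ at e12.5, an embryonic stage, and 6 brachial samples were wildtype at e12.5. The p8 cells carried tdTomato from the Ai9 reporter, switched on by Cre from the Chat locus, and the e12.5 cells carried Mnx1-GFP. In Hoxc8 MNΔ embryos, floxed Hoxc8 was deleted by Olig2-Cre, which acts in MN progenitors, and their controls carried the floxed alleles without Cre. Chat and Mnx1 each mark some spinal neurons other than MNs, and the cords of several animals were pooled per replicate for the p8 and the Mnx1-GFP wildtype samples. Pooling of the Hoxc8 MNΔ samples and their controls is not given in the sources used here. Stage was therefore joined to the reporter used for sorting. The p8 levels below also pool 3 regions, whereas the e12.5 levels are brachial only, pool mutant with wildtype, and came from a dissection placed further caudal than that of the stage comparison. Each difference between p8 and e12.5 is thus joined to reporter, region, genotype and segment, which cannot be told apart from stage. In pooled RNA of this kind, fewer cells of a type and less RNA per cell cannot be told apart either.

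The levels below are the authors' base means, that is, read counts divided by the size factor of each library and averaged by the authors over all libraries of a table. There were 3 sets of them. The p8 set pooled the 3 regions, since the 3 regional tables held the same base mean for all 27179 genes. The e12.5 set pooled mutant and wildtype libraries and was listed per RefSeq transcript. The stage set pooled p8 and e12.5 brachial libraries and was listed per gene. No set held a value per sample, so these levels have no SD, no test and no value for a region or genotype alone. The sets were normalized separately, and a member was therefore also placed by its percentile, the percent of genes with a base mean above 0 in the same set that lay below it in base mean per kb of exons. The length was that of all exons of the gene in the p8 and stage sets. In the e12.5 set it was that of the transcript, or of the gene where no transcript was matched. Where the gene is longer, as for Sfrp4 (4179 against 1764 bases) and Wnt2b (4201 against 3318), this lowers the level per kb at p8 against e12.5. Each difference between sets below is a description with no test.

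Before the members were read, the libraries behind each set were examined. The lowest base means recurred at a few values, each of which is the contribution of 1 read in 1 library. These values numbered 9 in the p8 set, from 0.0405 to 0.693, and 9 in the stage set, from 0.0651 to 1.33. In the e12.5 set they numbered 6, from 0.142 to 0.183. In the p8 set 3 libraries had far fewer reads than the others, and in the stage set 1 library stood apart, with 1 read weighing 20.3 times as much there as in the deepest library. A p8 base mean can thus come from few reads in a shallow library or many reads in a deep library, and the bounds on reads given below cover both. Which labelled sample each value belongs to was not determined, so no level could be given without the shallow libraries.

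**Figure D1:**
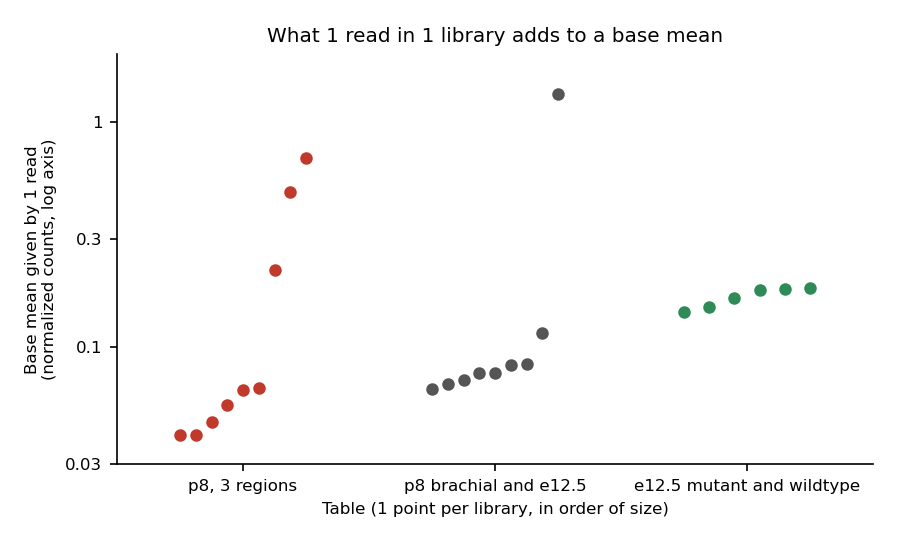
The base mean that 1 read in 1 library contributes (normalized counts, log axis), with 1 point per library, for the p8, stage and e12.5 sets from left to right. The 6 libraries of the e12.5 set lie between 0.142 and 0.183, whereas 3 of 9 p8 libraries and 1 of 9 stage libraries lie far above the rest of their set.

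The sorted cells were compared with marker genes of the cell types the cord could hold. At p8, markers of MNs stood low. Mnx1 had a base mean of 0.696 at p8, against 3970 at e12.5, Isl1 had 2.67 at p8 and 520 at e12.5, and Chat, the acetylcholine-synthesizing enzyme behind the reporter, had 14.1 at p8 and 253 at e12.5. Isl2 was at 0.0406 at p8, which is what 1 read gives. Of the 7 MN markers, Slc5a7 at 165 and Prph at 443 were the highest at p8. The 6 oligodendrocyte markers, all of them myelin genes, took 43.4% of the summed base mean at p8, with percentiles from 99.7 to 99.99. The microglia markers had a median percentile of 93.0 at p8 and 43.5 at e12.5. At e12.5 the inhibitory interneuron gene Pax2 was at 10167, while it was listed at 0 at p8. In samples labelled as MNs at p8, 4 of the 7 MN markers reached a base mean of 10 and Mnx1, Isl1 and Isl2 did not, and markers of myelin and microglia moved with stage beside every member described here. Their part in the members' values was not tested.

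**Figure D2:**
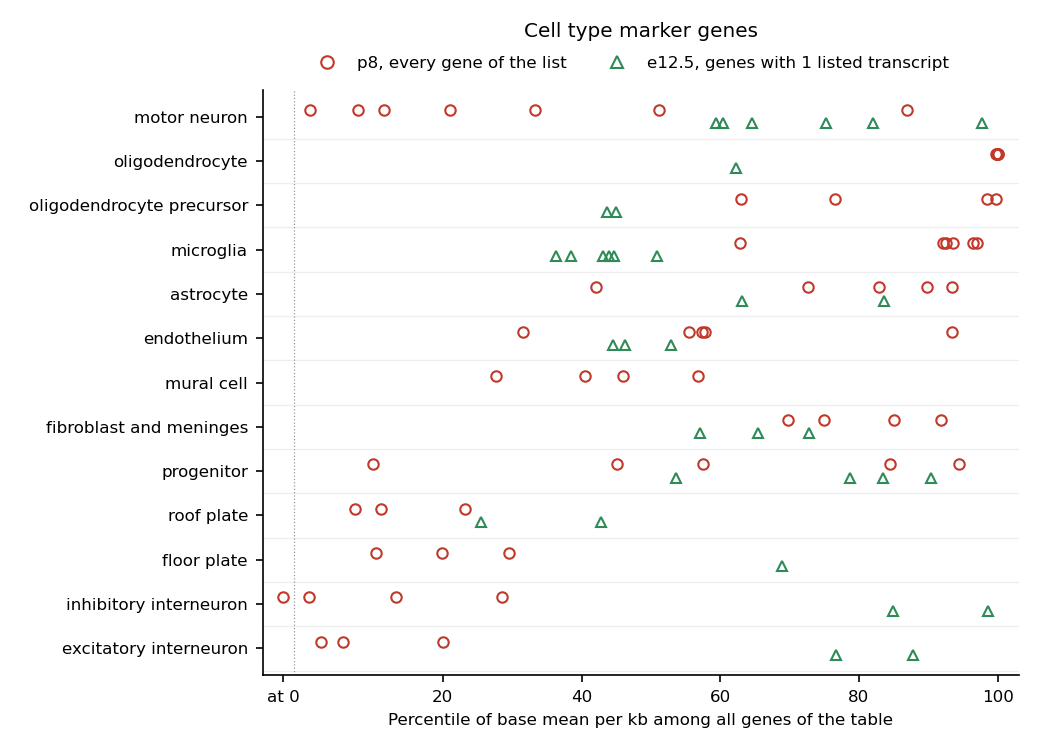
Percentile of base mean per kb for the marker genes of 13 cell types, with p8 as circles above e12.5 as triangles in each row. At p8 the oligodendrocyte markers lie above the 99th percentile and 5 of 7 MN markers lie below the 34th, whereas the 6 MN markers that can be read at e12.5 lie from 59.4 to 97.8.

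The e12.5 set could be read for only some of the members. For genes listed with several transcripts, the e12.5 base means, even when summed, were far below those of the stage set. Among genes with a stage base mean of at least 10, the median ratio of the summed e12.5 base mean to the stage base mean was 1.37 over 9661 genes with 1 listed transcript, 0.0122 over 2710 genes with 2, and 0.00452 over 2313 genes with 3 or more. The 6 members concerned were Fzd5, Fzd6, Wnt5a, Wnt5b, Wnt7b and Wnt11. Fzd5 and Wnt11 were listed at 0 at e12.5 for every transcript and had stage base means of 21.6 and 12.1. None of the transcripts of these 2 genes has a base that the other listed transcripts lack. Wnt7b had 3 transcripts at 10.3, 9.77 and 1.67 at e12.5, against 300.4 in the stage set. Wnt5a was at 20.2 for the transcript with 3379 bases of its own and at 0.178 for the transcript with 19. Reads that fall on more than 1 feature are left unassigned by featureCounts unless set otherwise, and the setting used is not given in the sources used here. The e12.5 levels of these 6 members are thus printed beside the stage levels only and enter no difference between stages, which leaves 31 members. A lone listed transcript was no guarantee either. Of the 9661 genes with 1, 349 (3.61%) had an e12.5 base mean below 1, among them the pathway genes Wls and Dvl1, named here for this reason, which were listed at 0 at e12.5 and at 1001 and 1951 in the stage set. Genes with several listed transcripts still entered the ranking of all genes at e12.5, and their low values there raise the percentiles of the others. Over 10684 genes with 1, the percentile at p8 minus that at e12.5 had a median of -11.07 points, so most stood lower at p8. The median was -3.23 when these genes were ranked alone. Counts of genes lower at p8 are to be read against this. The share over all genes was not counted.

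**Figure D3:**
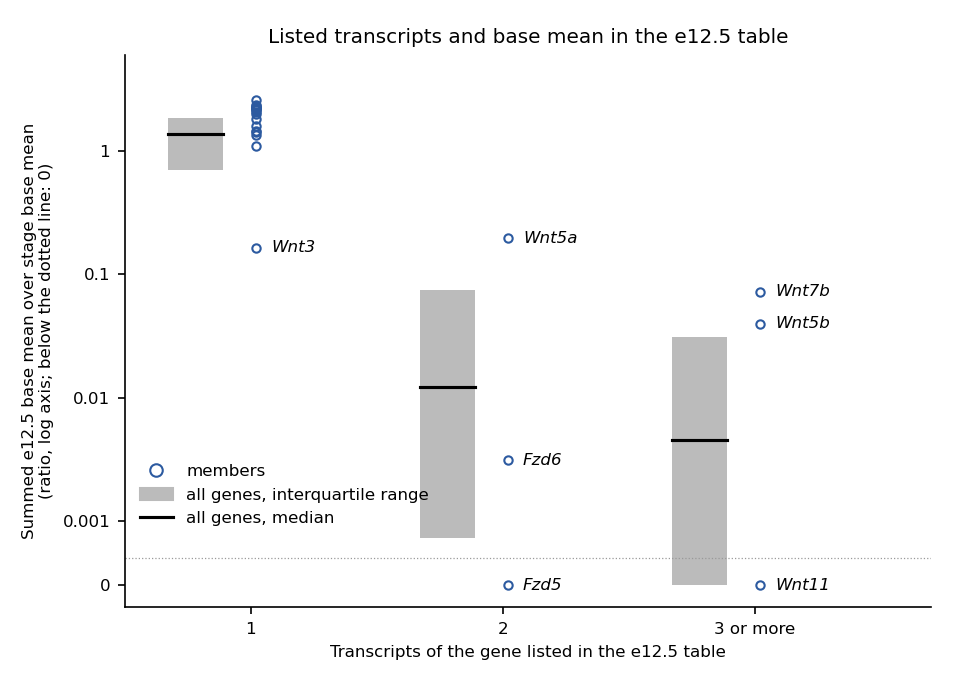
Ratio of the summed e12.5 base mean to the stage base mean (log axis, with 0 below the dotted line) for genes with 1, 2 and 3 or more listed transcripts. Grey boxes give the interquartile range and black lines the median of all genes with a stage base mean of at least 10. Circles are members, and the 6 members with several transcripts all lie below 0.2, beside Wnt3 among those with 1.

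Of the 37 members, 23 had a base mean of at least 10 at p8 (62.2%, against 55.7% of all symbols). Of the 31 members with 1 listed transcript, 19 reached it at e12.5 (61.3%, against 50.7% of all such symbols). In the stage set 23 members reached it (62.2%, against 59.4%). At p8 all 10 Frizzled receptors reached this level, as did 9 of 19 ligands, 3 of 4 Sfrp genes and 1 of 4 Dkk genes. At e12.5 it was reached by 8 of 8 receptors, 5 of 15 ligands, 4 of 4 Sfrp genes and 2 of 4 Dkk genes.

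The make-up of the set differed between the stages. By base mean per kb, summed over the 31 members with 1 listed transcript, ligands made up 44.3% at p8 and 9.56% at e12.5. Receptors made up 33.8% at p8 and 51.9% at e12.5. Sfrp genes made up 10.9% at p8 and 32.9% at e12.5, and Dkk genes made up 10.9% at p8 and 5.57% at e12.5. These are shares and not levels. The summed level per kb of the ligands was 175 at p8 and 221 at e12.5. It was 134 at p8 and 1200 at e12.5 for the receptors, and 43.3 at p8 and 761 at e12.5 for the Sfrp genes. For the Dkk genes it was 43.1 at p8 and 129 at e12.5. A single ligand, Wnt3, held 30.6% of the sum at p8, and a single receptor, Fzd3, held 29.2% of it at e12.5.

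**Figure D4:**
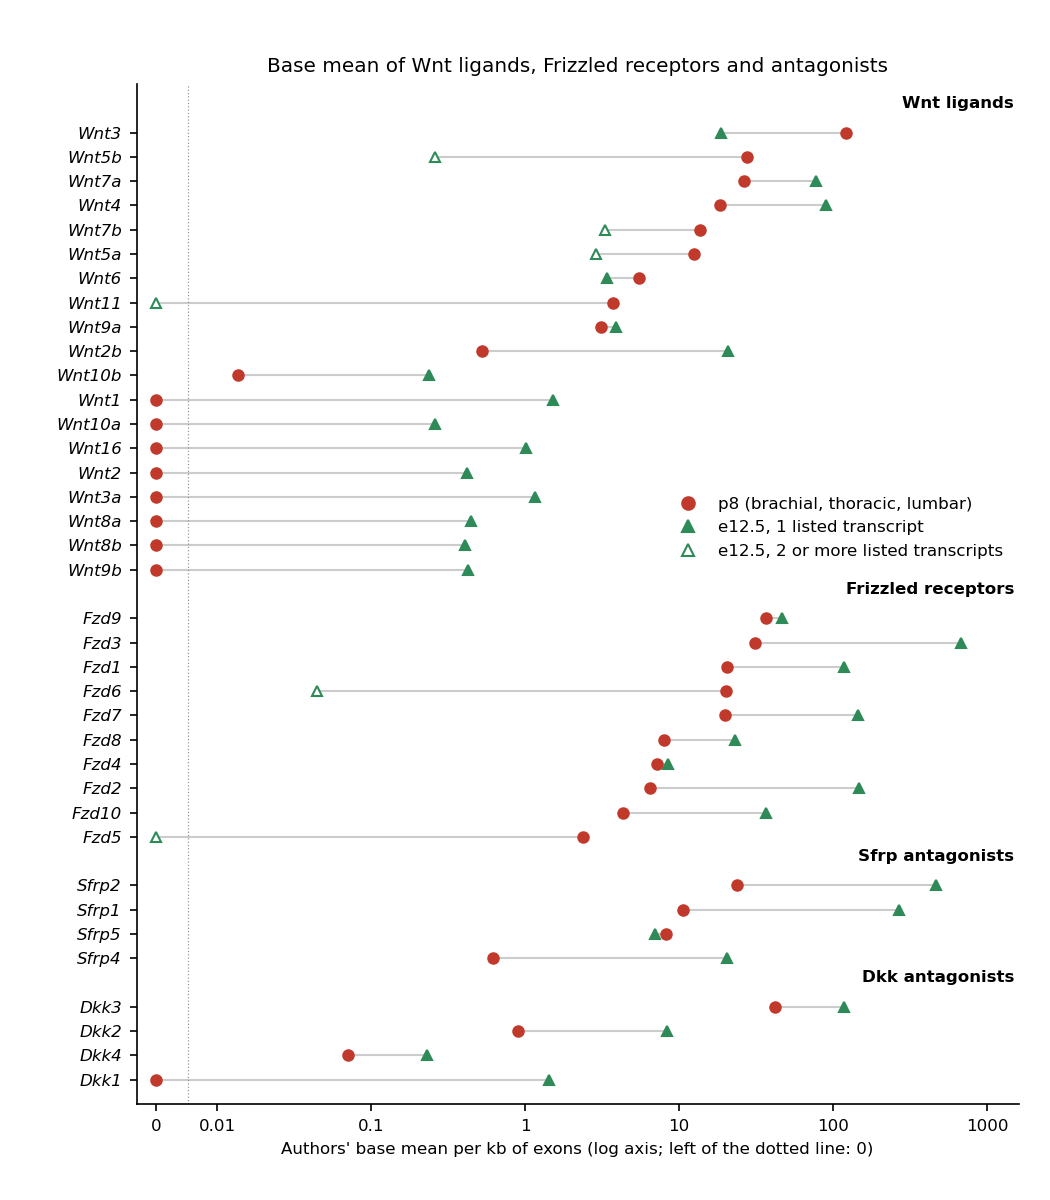
Authors' base mean per kb of exons (log axis, with 0 left of the dotted line) of all 37 members by family, with p8 as circles and e12.5 as triangles. Open triangles mark the 6 members with several listed transcripts, whose e12.5 level is not read. Wnt3 lies at 121 at p8 and 18.6 at e12.5, and Fzd3 at 31.2 at p8 and 675 at e12.5.

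Among the ligands, Wnt3 had the highest level per kb at p8 of all 37 members. Wnt3 is a canonical Wnt with known roles in gastrulation and in axon guidance. It lies on chromosome 11 from 103774175 to 103818021 (GRCm38). Its base mean was 372 at p8, from between 538 and 9193 reads, and 57.2 at e12.5, from between 313 and 402 reads. Its percentile was 78.4 at p8 and 48.8 at e12.5, a difference of 29.66 points that ranged from 19.87 to 40.79 over 4 other rankings. Among the 22 members with 1 listed transcript and a value in both sets, Wnt3 alone stood higher at p8 in the ranking among all genes. It was 1 of 6 such members when genes with 1 listed transcript were ranked alone. In the stage set, which was counted per gene, Wnt3 was at 347 with a percentile of 62.3, a difference of -16.13 points from the p8 set. Its ratio of e12.5 to stage base mean was 0.165, and 10.7% of genes with 1 listed transcript had a lower ratio. The 5′ end of Wnt3 overlaps the span of Wnt9b on the opposite strand with no exonic base in common. Wnt9b was listed at 0 at p8 and had 1.94 at e12.5.

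TCF and LEF factors recognise CTTTGNN with each N limited to A or T, and these letters were searched on both strands in the RefSeq promoters, which run from 250 bases before the start of a gene to 50 after it. They were found in 5 of the 28 promoters listed for 25 members (17.9%) and in 16.9% of all 32851 promoters. The promoters of a ligand, a receptor and an antagonist that hold the letters are shown, with the matches in capitals, because the ligand led the set at p8, the receptor was among the higher members at e12.5, and the antagonist held 2 matches. They lie at chr11:103773925-103774224 on the plus strand, chr1:59481897-59482196 on the plus strand and chr19:30549447-30549746 on the minus strand (GRCm38.p6).
Wnt3: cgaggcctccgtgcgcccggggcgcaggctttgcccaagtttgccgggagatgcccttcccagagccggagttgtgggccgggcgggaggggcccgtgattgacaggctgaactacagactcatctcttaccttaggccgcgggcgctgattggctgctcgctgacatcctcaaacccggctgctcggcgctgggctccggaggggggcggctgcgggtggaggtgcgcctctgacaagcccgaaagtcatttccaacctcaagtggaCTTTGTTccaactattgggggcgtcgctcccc
Fzd7: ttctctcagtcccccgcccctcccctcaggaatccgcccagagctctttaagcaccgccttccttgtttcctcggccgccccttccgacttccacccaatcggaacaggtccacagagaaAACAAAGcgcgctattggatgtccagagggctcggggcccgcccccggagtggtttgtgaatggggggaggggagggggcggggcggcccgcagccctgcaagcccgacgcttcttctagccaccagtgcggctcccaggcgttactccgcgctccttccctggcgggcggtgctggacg
Dkk1: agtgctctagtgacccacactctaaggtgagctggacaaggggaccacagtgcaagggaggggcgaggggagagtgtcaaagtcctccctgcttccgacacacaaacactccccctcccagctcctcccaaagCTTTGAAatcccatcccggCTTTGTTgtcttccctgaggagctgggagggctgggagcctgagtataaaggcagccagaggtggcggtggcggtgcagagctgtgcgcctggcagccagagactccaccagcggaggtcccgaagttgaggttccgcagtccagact
In Wnt3 the match lies after the start, at base 19 of the transcript. In Fzd7 it is on the opposite strand and 130 bases before the start, and in Dkk1 the matches lie 117 and 98 bases before it. A match is a stretch of letters, and no binding was measured in these samples.

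Wnt7a and Wnt4 were the other ligands with 1 listed transcript that had a base mean of at least 50 at both stages. Wnt7a, which in other parts of the nervous system acts on synapse formation and on brain vessels, had a base mean of 84.2 at p8 and 247 at e12.5. Its percentile was 49.4 at p8 and 63.1 at e12.5. Wnt4, known for its part in kidney and gonad development and in axon guidance in the spinal cord, had 77.5 at p8 and 380 at e12.5. Its percentile was 42.9 at p8 and 64.8 at e12.5. Both thus stood lower at p8 in this ranking, with differences of -13.69 points for Wnt7a and -21.96 points for Wnt4. When genes with 1 listed transcript were ranked alone, the differences were -1.0 for Wnt7a and -9.32 for Wnt4, so little was left of that of Wnt7a.

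Wnt2b, a canonical ligand, gave the lowest difference among the ligands. It had a base mean of 2.19 at p8, from between 4 and 54 reads, and 68.7 at e12.5, from between 376 and 483 reads. Its percentile was 10.2 at p8 and 49.9 at e12.5. Wnt6 and Wnt9a were low at both stages. Wnt6 had 12 at p8 and 7.08 at e12.5, and Wnt9a had 10.3 at p8 and 13.0 at e12.5. Of all 15 ligands with 1 listed transcript, 7 had reads in both sets, and 6 of these 7 stood lower at p8, although Wnt6 turned when genes with 1 listed transcript were ranked alone. One of the 6, Wnt10b, rested on 1 read at p8 and 3 at e12.5, which gives no direction, and without it 5 of 6 stood lower at p8.

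The 4 ligands with several listed transcripts were read at p8 and in the stage set. Wnt5b, a relative of the non-canonical ligand Wnt5a, was the second ligand per kb at p8, with a base mean of 73.3 at p8 and 27.1 in the stage set. Its percentile was 50.1 at p8 and 27.4 in the stage set. Wnt5a, which signals through Ror and Ryk receptors and through planar polarity, had 97.8 at p8 and 104 in the stage set. Wnt7b, known for its part in the growth of vessels into the neural tube, had 67.4 at p8 and 300.4 in the stage set. Its percentile was 38.3 at p8 and 49.9 in the stage set, and among these 4 ligands it alone stood higher in the stage set. Wnt11 had 15.5 at p8 and 12.1 in the stage set. The stage set shares its p8 brachial libraries with the p8 set.

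The remaining 9 ligands, Wnt1, Wnt2, Wnt3a, Wnt8a, Wnt8b, Wnt9b, Wnt10a, Wnt10b and Wnt16, were near 0 at both stages. Wnt1 and Wnt3a are the roof plate ligands of the embryonic cord. Of these 9, 8 were listed at 0 at p8, and Wnt10b rested on 1 read there. A count of 0 over the 9 libraries allows up to 3 reads, which is a base mean of 0.122 if they fell in the deepest library and 2.08 if they fell in the shallowest. At e12.5 all 9 had reads, with base means from 0.526 for Wnt10b to 3.59 for Wnt1. Wnt1 rested on 22 reads in 5 of 6 e12.5 libraries and Wnt3a on 19 reads in 6 of 6. The roof plate markers Lmx1a and Msx1 had base means of 2.10 and 12 at p8, against 6.20 and 19.7 at e12.5. All of these ligands but Wnt1 and Wnt3a had an e12.5 base mean under 2.08. Since the sets were normalized separately and hold no value per sample, whether any of the 9 differed between stages cannot be said at this depth.

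All 8 Frizzled receptors with 1 listed transcript stood lower at p8 in percentile, with a median difference of -24.89 points, although Fzd9 and Fzd4 turned when genes with 1 listed transcript were ranked alone. Fzd3, the receptor of planar polarity in growing axons and in the wiring of the brain, had the highest level of all members at e12.5. It lies on chromosome 14 from 65192441 to 65262463. Its base mean was 399 at p8, from between 576 and 9846 reads, and 8595 at e12.5, from between 46928 and 60452 reads. Its percentile was 52.4 at p8 and 90.9 at e12.5. The planar polarity genes that act with Fzd3 are described below.

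Fzd2, Fzd7 and Fzd1 came next among the receptors at e12.5. These 3 form a group of close relatives that act in canonical and non-canonical signalling. Fzd2 had a base mean of 23.8 at p8 and 539 at e12.5, the lowest difference of percentile among receptors with 28.3 at p8 and 70.5 at e12.5. Fzd7 had 89.8 at p8 and 662 at e12.5, with percentiles of 43.9 at p8 and 70.4 at e12.5. Fzd1 had 85.6 at p8 and 492 at e12.5, with percentiles of 44.5 at p8 and 67.8 at e12.5. Although the e12.5 percentiles of these 3 receptors lay within 3 points of each other, Fzd2 stood over 15 points below Fzd7 and Fzd1 at p8.

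Fzd9, described below, came next, before Fzd10 and Fzd8. Fzd10, found in the dorsal neural tube in several vertebrates, had 14.2 at p8 and 120 at e12.5, with percentiles of 24.3 at p8 and 55.7 at e12.5. Fzd8 had 47.6 at p8 and 137 at e12.5, with percentiles of 30.7 at p8 and 51.1 at e12.5. Of the receptors with 1 listed transcript, Fzd9 and Fzd4 differed least in percentile among all genes, by -1.98 and -11.78 points. Fzd9 had 83.6 at p8 and 106 at e12.5, and at p8 it was the first receptor per kb, with a percentile of 56.0 at p8 and 57.9 at e12.5. Fzd4, the receptor of Norrin in blood vessels of the retina and brain, had 48.0 at p8 and 57.2 at e12.5, with percentiles of 29.5 at p8 and 41.3 at e12.5. Of the 5 endothelial markers, 3 could be compared. Cldn5 had percentiles of 93.4 at p8 and 53.0 at e12.5, Kdr 57.4 at p8 and 46.2 at e12.5, and Cdh5 31.6 at p8 and 44.6 at e12.5. In this ranking 2 of the 3 markers thus stood higher at p8 and 1 lower. When genes with 1 listed transcript were ranked alone, all 3 stood higher at p8, with a median difference of 23.81 points. The part of these markers in the level of Fzd4 was not tested.

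The 2 receptors with several listed transcripts were read at p8 and in the stage set. Fzd6, a partner of Fzd3 in planar polarity, had 97.2 at p8 and 59.1 in the stage set, with percentiles of 44.3 at p8 and 29.0 in the stage set. Fzd5 had 16.4 at p8 and 21.6 in the stage set, with percentiles of 19.4 at p8 and 19.2 in the stage set. By level per kb, the order of the receptors at p8 was Fzd9, Fzd3, Fzd1, Fzd6, Fzd7, Fzd8, Fzd4, Fzd2, Fzd10 and Fzd5. At e12.5 the order of the 8 that could be read was Fzd3, Fzd2, Fzd7, Fzd1, Fzd9, Fzd10, Fzd8 and Fzd4. With no spread over samples, which neighbours in these orders differ cannot be said.

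Sfrp1 and Sfrp2 were the leading antagonists at e12.5. Sfrp1, which in the embryo limits Wnt activity and also acts on axons of the retina, had a base mean of 46.1 at p8, from between 67 and 1138 reads, and 1171 at e12.5, from between 6394 and 8236 reads. Its percentile was 34.3 at p8 and 79.0 at e12.5. This difference of -44.70 points was the lowest of all 22 members. Sfrp2, which has a part in setting progenitor domains of the spinal cord, had 51.4 at p8 and 933 at e12.5. Its percentile was 47.5 at p8 and 86.6 at e12.5, and it followed Fzd3 as the second member per kb at e12.5.

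Sfrp1 and Sfrp2 are known from neural progenitors. Of the 4 progenitor markers with 1 listed transcript, Nes was at 136 at p8 and 3884 at e12.5, Hes5 at 53.4 at p8 and 334 at e12.5, Sox2 at 373 at p8 and 758 at e12.5, and Olig2 at 1421 at p8 and 76.4 at e12.5. Reads of these 4 genes were thus found in both sets. Pax6, the other gene of the list, has several listed transcripts. It had 5.80 at p8 and 439 in the stage set, with percentiles of 9.88 at p8 and 41.9 in the stage set. Whether progenitors were among the p8 cells was not tested. In percentile among all genes, Nes and Hes5 stood lower at p8. Sox2 was at 84.4 at p8 and 83.5 at e12.5, and Olig2 at 94.4 at p8 and 53.7 at e12.5. The part of these markers in the levels of Sfrp1 and Sfrp2 was not tested. Sfrp4 had 2.60 at p8, from between 4 and 64 reads, and 36.3 at e12.5. Sfrp5 had 15.7 at p8 and 13.3 at e12.5, with percentiles of 31.1 at p8 and 39.1 at e12.5, an order that turned when genes with 1 listed transcript were ranked alone. The Sfrp genes had a median difference of -39.00 points between p8 and e12.5, against -24.89 for the receptors, -11.77 for the ligands and -8.94 for the Dkk genes. When genes with 1 listed transcript were ranked alone, these medians were -29.36 for the Sfrp genes, -13.26 for the receptors, -1.71 for the Dkk genes and -1.0 for the ligands, so the order of the last 2 families turned.

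Of the Dkk genes, Dkk3 had by far the highest level. Dkk3 is the divergent member of its family, and its action on the Lrp co-receptors is not established. Its base mean was 142 at p8 and 398 at e12.5, with percentiles of 59.0 at p8 and 67.9 at e12.5, and this order turned in the ranking of genes with 1 listed transcript. At p8 Dkk3 was the second member per kb after Wnt3. Dkk2, which can act for or against the pathway, had 3.33 at p8 and 31.0 at e12.5, with percentiles of 12.9 at p8 and 41.1 at e12.5. Dkk1, the classical secreted inhibitor, was listed at 0 at p8 and rested on 20 reads in 5 of 6 libraries at e12.5, with a base mean of 3.49. Dkk4 rested on 2 reads of 1 library at p8, and on 2 reads of 1 library at e12.5.

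Over the 22 members with 1 listed transcript and reads in both sets, the median difference of percentile between p8 and e12.5 was -21.19 points, and 21 of 22 differences were below 0. Without Wnt10b and Dkk4, which had 3 reads or fewer in each set, 19 of 20 were below 0. Genes with several listed transcripts also entered this ranking, and their low e12.5 values raise the e12.5 percentiles of the others. All genes with 1 listed transcript shared much of the members' shift, with a median of -11.07 and an interquartile range from -26.09 to 2.0 over 10684 genes. Of the members, 9 lay below that range and 1, Wnt3, above it. None lay outside the range from the 5th to the 95th percentile of these genes, from -49.36 to 30.84, in the ranking among all genes. When genes with 1 listed transcript were ranked among themselves alone, the median was -8.06 for the members and -3.23 for all such genes. In this ranking Wnt3 stood 40.79 points higher at p8, just above the 95th percentile of all such genes at 40.03, and 17 of 22 members kept their sign. Dkk3, Fzd4, Fzd9, Sfrp5 and Wnt6 then stood higher at p8 by 1.11 to 11.10 points, so no direction can be given for these 5. The 6 lowest differences in this ranking were those of Sfrp1, Fzd3, Sfrp2, Fzd2, Wnt2b and Sfrp4, from -35.17 to -26.32 points. Wnt2b and Sfrp4 have genes longer than their e12.5 transcripts. With no division by length, among all genes, their differences were -40.92 and -34.78 points.

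**Figure D5:**
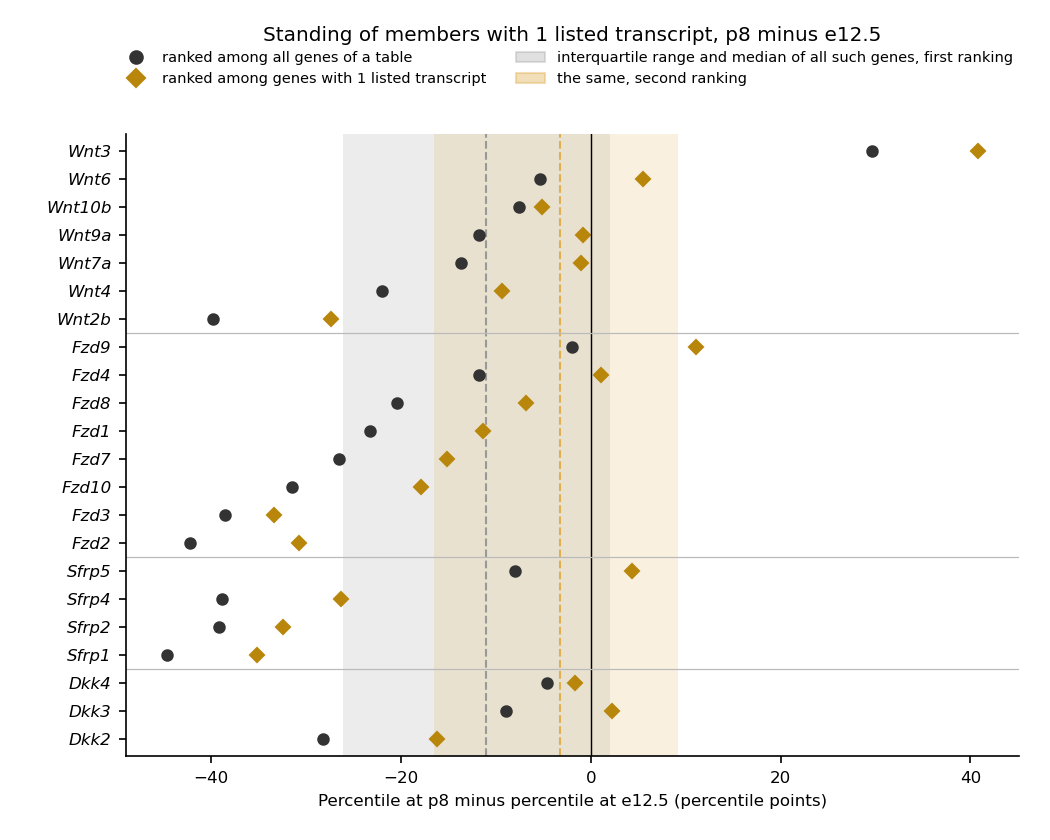
Percentile at p8 minus percentile at e12.5 of the 22 members with 1 listed transcript and reads in both sets, ranked among all genes (circles) and among genes with 1 listed transcript (diamonds). Shaded bands give the interquartile range and dashed lines the median of all genes with 1 listed transcript. Wnt3 alone lies far to the right of both bands, at 29.66 and 40.79 points, and Sfrp1 lies at -44.70 and -35.17.

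The stage set gave a second view of the same libraries in part. For 17 members with 1 listed transcript and a stage base mean of at least 10, the ratio of the e12.5 to the stage base mean had a median of 2.08, against 1.37 over all genes of this kind. Of these members, 10 lay above the upper quartile of all genes and Wnt3 alone lay below the lower quartile. Sfrp2 had the highest ratio at 2.58, and 98.1% of genes lay below it. Wnt4 had 2.36 and Fzd1 2.34. Apart from Wnt3, the lowest ratio was that of Fzd4 at 1.09. Over the 28 members with reads at p8, the percentile in the stage set minus that in the p8 set had a median of 0.35 points, and it ranged from 30.43 for Fzd3 to -22.67 for Wnt5b.

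The rest of the pathway was described from 6 lists. Most genes with 1 listed transcript stood lower at p8 whatever their list, with median differences of -11.07 points among all genes and -3.23 ranked alone. The counts below are to be read against this. For the secretion of Wnts and their co-receptors, all 7 genes had a base mean of at least 10 at p8, with a median percentile of 41.4. Wls, the carrier of Wnts to the cell surface, had 1240 at p8 and 1001 in the stage set. Porcn, the enzyme that attaches their lipid, had 300.1 at p8 and 813 in the stage set. The co-receptor Lrp6 had 230.5 at p8 and 2447 at e12.5, and the 3 genes of the list that could be compared all had lower percentiles at p8.

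For the destruction complex and the signal downstream of it, all 8 genes had a base mean of at least 10 at p8. Ctnnb1, which encodes beta-catenin, had 4371 at p8 and 10157 in the stage set. Apc, a scaffold of the complex, had 2513 at p8 and 14703 at e12.5. Dvl2, which encodes a Dishevelled protein, had 169 at p8, with a percentile of 49.6, and 971 at e12.5, with a percentile of 81.8. Of the nuclear factors, all 4 have several listed transcripts and could not be compared. Tcf7l2 had 798 at p8 and 539 in the stage set, Tcf7 had 120 at p8 and 163 in the stage set, and Tcf7l1 had 62.8 at p8 and 124 in the stage set.

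For planar polarity, 4 of the 5 genes that could be compared stood lower at p8, with a median difference of -33.91 points, and 3 of the 5 when genes with 1 listed transcript were ranked alone. Vangl2, the core planar polarity protein, had 211 at p8 and 8828 at e12.5, with percentiles of 51.8 at p8 and 97.3 at e12.5. Celsr3, an adhesion receptor that works with Fzd3 in axon tracts, had 38.1 at p8 and 13897 at e12.5, with percentiles of 21.5 at p8 and 95.8 at e12.5. Celsr3 and Vangl2 lay on the same side as Fzd3, as did most genes with 1 listed transcript. Prickle1 was the exception, with 547 at p8 and 430 at e12.5 and percentiles of 79.3 at p8 and 66.6 at e12.5.

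R-spondins, their Lgr receptors and the ubiquitin ligases Znrf3 and Rnf43 set how much Frizzled stays on the membrane. Of these 9 genes 5 had a base mean of at least 10 at p8, and 7 of the 8 that could be compared stood lower at p8, or 6 of 8 in the ranking of genes with 1 listed transcript. Lgr4 had 71.7 at p8 and 1070 at e12.5, and Rspo3 had 9.11 at p8 and 64.5 at e12.5. Rnf43 was the exception, with 36.4 at p8 and 1.69 at e12.5. Of the 11 further inhibitors, 8 had a base mean of at least 10 at p8. Nkd1, a feedback inhibitor that binds Dishevelled, had 1494 at p8 and 1137 in the stage set. Sostdc1, a secreted inhibitor, had 107 at p8 and 3.23 at e12.5, and 2 of the 8 genes that could be compared stood higher at p8, or 3 of 8 in that ranking. In contrast, Draxin, an axon repellent that also inhibits Wnts, had 8.08 at p8 and 4096 at e12.5. These 2 lists thus held genes of both directions.

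Exons of 6 members overlap those of a gene on the opposite strand: Fzd5, Fzd6, Sfrp2, Wnt5a, Wnt7b and Wnt11, by 152 to 1233 bases. Whether the counting used strand is not given in the sources used here, so their reads cannot be told apart from those of the overlapping gene in these stretches.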

How the data were processed

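RNA-Seq of MNs sorted from mouse spinal cord was analysed in 18 samples, grouped by the stage, region and genotype of their labels. The authors aligned unique reads to GRCm38 (mm10) with HISAT, obtained counts from featureCounts and ran DESeq2 between groups, on Galaxy, and versions are not given in the sources used here. The base mean deposited by the authors in each of 5 tables is a signal, the mean over all libraries of the read counts divided by size factors. The 5 other columns of each table (log2 fold change, its standard error, a Wald statistic, a p-value and an adjusted p-value) hold the authors' comparisons and were not used. The depth of a sample is therefore known only through the contribution of 1 read to a base mean.

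Symbols came from RefSeq (GRCm38.p6) and were found for 93.0% of genes and 99.2% of transcripts, and exon lengths came from GENCODE vM21 (79.5% and 98.4%). At e12.5 the transcript with the highest base mean stood for a gene. Members, gene lists and the rule for named genes (every member at 10 or more in any table, and up to 3 genes per pathway list among those highest per kb at either stage) were chosen with earlier results of these data known. Low base means were resolved into whole reads by the recurring single-read values (each seen in at least 10 features), a step tested on simulated data. Alternatives were other thresholds, no division by length, other sets of genes to rank among and sums over transcripts. Intervals of reads and the limit of 3 reads cover counting error only. Python 3.11.15, numpy 2.4.6, pandas 2.3.3 and matplotlib 3.10.9 were used.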

Additional observations from a re-analysis of the deposited data

How the results depend on the processing

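No paired analysis was possible because the tables hold no values per sample, and for the same reason no replicate could be left out. At a base mean of at least 50 instead of 10, 13 members remained at p8 in place of 23, and at a base mean per kb of at least 10 there were 14. Ranking among genes with 1 listed transcript alone, an alternative added after the data were seen, gave a median percentile of 31.2 at e12.5 in place of 41.3 and a median difference between p8 and e12.5 of -8.06 in place of -21.19. In that ranking Dkk3 (2.28), Fzd4 (1.11), Fzd9 (11.10), Sfrp5 (4.35) and Wnt6 (5.53) turned to a higher percentile at p8. Fzd9 also turned (1.14) when only genes whose base mean reached 1 were ranked, as did the median difference between the stage and p8 sets (-0.52 in place of 0.35). With no division by length, Fzd5 (0.32) and Wnt4 (0.62) turned in that difference. Leaving out genes with several listed transcripts lowers the e12.5 percentiles of the others in the ranking of genes with 1. What else turned each value was not tested. All other alternatives kept the direction of every median and moved it by less than 10 percentile points. Depth, known only by size factor, limits the low levels of the p8 set, where 3 of 9 libraries were shallow, and of the stage set, where 1 of 9 was.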
